A study of Mus musculus with 15 samples.

Results

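Krt7, Krt19, Krt8, Krt18, Epcam, Cd24a, Spp1 and Sox9 are 8 genes of bile duct epithelium and of simple epithelia in general, and several of them are also made by kidney tubule. They were chosen by name as known genes of cholangiocytes, the cells that line bile ducts, and make up 8 of the 15594 genes tested. RNA was measured with 1 Agilent array per sample in 15 samples of female FVB/N mice, to compare liver tissue grown in the kidney with its host organs and with normal liver. The 4 neo-liver samples were liver tissue microdissected out of host kidneys, the 4 host liver samples the injured livers, and the 4 host kidney samples the kidneys of the host mice. The hosts were wild-type recipients that had been given monocrotaline, an alkaloid toxic to liver, at 70 mg/kg by intraperitoneal injection in 2 doses 2 weeks apart, from 7 to 9 weeks of age. Then 1000000 hepatocytes of human α1-antitrypsin transgenic FVB/N donors, aged 8 to 20 weeks, were placed under the kidney capsule, and tissue was taken 250 to 300 days later, at 48 to 55 weeks of age. The 3 control liver samples came from normal mice of 20 weeks. Treatment and age therefore cannot be told apart between host tissues and control liver.

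Keratins of simple epithelia form filaments from a type II partner (Krt7, Krt8) and a type I partner (Krt18, Krt19). Of these keratins hepatocytes make Krt8 and Krt18 alone, whereas bile duct cells add Krt7 and Krt19, and collecting duct and other tubule cells of the kidney also make Krt7, Krt8, Krt18 and Krt19. Epcam is a cell adhesion molecule of most simple epithelia that mature hepatocytes lack, Cd24a a small lipid-anchored surface glycoprotein, Spp1 the secreted phosphoprotein osteopontin, and Sox9 a transcription factor that marks duct cells and liver progenitors.

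Each of the 8 genes had 1 probe on the array (10 spots for Sox9, 1 spot for each other gene), and no spot was saturated. Levels are log2 signal relative to the 75th percentile of the array, so a level of 0 is the 75th percentile. This percentile was 416 to 676 signal units on the neo-liver arrays, 287 to 448 on the host liver arrays, 561 to 874 on the host kidney arrays and 389 to 424 on the control liver arrays. Neo-liver and control liver arrays shared a slide, host kidney arrays had a slide of their own, and host liver replicates 1 and 2 and replicates 3 and 4 lay on one slide each, so slide and tissue cannot be told apart for host kidney or host liver. The summed level of 14 hepatocyte genes, with the 75th percentile as 100, was 488380 to 722712 in neo-liver, 853378 to 1176142 in host liver, 36864 to 52858 in host kidney and 823725 to 869836 in control liver. That of 26 genes of nephron segments past the proximal tubule was 20297 to 35950 in neo-liver, 1005 to 1627 in host liver, 108945 to 146649 in host kidney and 1710 to 1831 in control liver. All 8 genes passed the filter on dim probes, Krt7 and Epcam through neo-liver and host kidney, since both were not well above background on any of the 3 control liver arrays.

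RefSeq promoter windows (build GRCm38.p6, 250 bases before to 50 after an annotated start) were held for 5 of the 8 genes. The windows of the 3 keratins of these 5 and of Epcam are shown because these genes fell on both sides of the comparison with kidney: Krt8 and Krt18 were higher in neo-liver, Krt7 and Epcam in host kidney. The windows lie at chr15:102004293-102004592 on the minus strand (Krt8), chr15:102027966-102028265 on the plus strand (Krt18), chr15:101412153-101412452 on the plus strand (Krt7) and chr17:87635729-87636028 on the plus strand (Epcam). Capitals mark matches, on either strand, to the TATA box TATAAA or the GC box GGGCGG.
Krt8: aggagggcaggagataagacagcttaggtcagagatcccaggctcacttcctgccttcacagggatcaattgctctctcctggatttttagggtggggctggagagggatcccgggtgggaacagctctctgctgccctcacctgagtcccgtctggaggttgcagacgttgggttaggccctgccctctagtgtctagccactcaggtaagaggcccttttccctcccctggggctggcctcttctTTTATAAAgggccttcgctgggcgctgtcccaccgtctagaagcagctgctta
Krt18: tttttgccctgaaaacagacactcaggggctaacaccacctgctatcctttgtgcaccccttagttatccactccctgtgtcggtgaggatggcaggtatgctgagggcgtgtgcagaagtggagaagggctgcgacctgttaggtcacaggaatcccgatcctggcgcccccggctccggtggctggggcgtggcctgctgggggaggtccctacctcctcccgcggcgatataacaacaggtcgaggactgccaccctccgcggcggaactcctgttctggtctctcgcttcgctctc
Krt7: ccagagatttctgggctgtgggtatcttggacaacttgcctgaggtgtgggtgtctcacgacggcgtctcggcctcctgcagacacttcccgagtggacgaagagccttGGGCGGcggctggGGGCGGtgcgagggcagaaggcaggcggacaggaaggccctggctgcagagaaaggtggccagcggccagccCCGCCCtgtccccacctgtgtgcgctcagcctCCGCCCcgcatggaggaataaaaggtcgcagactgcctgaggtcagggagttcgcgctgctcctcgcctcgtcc
Epcam: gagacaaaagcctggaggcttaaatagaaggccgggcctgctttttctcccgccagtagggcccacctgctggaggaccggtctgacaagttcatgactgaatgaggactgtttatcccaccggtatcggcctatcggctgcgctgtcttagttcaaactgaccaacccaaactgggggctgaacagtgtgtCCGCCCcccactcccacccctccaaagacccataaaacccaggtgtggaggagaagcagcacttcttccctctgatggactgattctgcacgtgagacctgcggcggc
Krt8 held 2 overlapping TATAAA matches, 1 per strand, starting 3 bases and 1 base before the annotated start. Krt7 held 4 GC boxes, Epcam 1 and Krt18 no match. Of all 32851 promoter windows, 13.6% held TATAAA and 35.7% held GGGCGG, and the GC content was 58.0% for Krt8, 61.3% for Krt18, 66.3% for Krt7 and 57.0% for Epcam, against a median of 52.7% over all windows. Searches on both strands for CCAAT, which 37.4% of all windows hold, gave no match in these 4 windows. The AP-1 site TGANTCA, held by 7.81% of all windows, and the SOX core motif ACAAT, held by 31%, gave no match in them either. The HNF1 site, also with no match, was in 3 of all windows. Spp1, also higher in host kidney, had windows that are not shown. Of these, the one at chr5:104434861-104435160 held 1 CCAAT and 1 TATAAA match. A match is a run of letters and does not show binding.

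Between neo-liver and host liver, 4 genes were higher in neo-liver (Krt7, Epcam, Cd24a and Spp1), 2 were lower (Krt18 and Sox9) and Krt8 and Krt19 were not called. Of all genes 48.6% were called, 17.1% higher and 31.5% lower, at a Benjamini-Hochberg adjusted p under 0.05 in limma. The groups did not overlap for 5 of the 8 genes and for 36.5% of all genes. Between neo-liver and host kidney, the same 4 genes were lower in neo-liver, Krt8, Krt18 and Sox9 were higher, and Krt19 was not called, where 52.7% of all genes were called, 29.5% lower and 23.2% higher. The groups were separate for 6 of the 8 genes and for 49.4% of all genes. These comparisons, and the one with control liver, share the neo-liver arrays. Against control liver, Krt18 and the 4 genes higher than in host liver were higher in neo-liver and no gene of the set was called lower, where 50.1% of all genes were called, 20.4% higher and 29.7% lower. Here the groups were separate for 5 of the 8 genes and for 57.1% of all genes. The median difference of the 8 genes was 1.04 against host liver, -0.89 against host kidney and 2.08 against control liver, and that of all genes -0.21, -0.09 and -0.15.

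**Figure D1:**
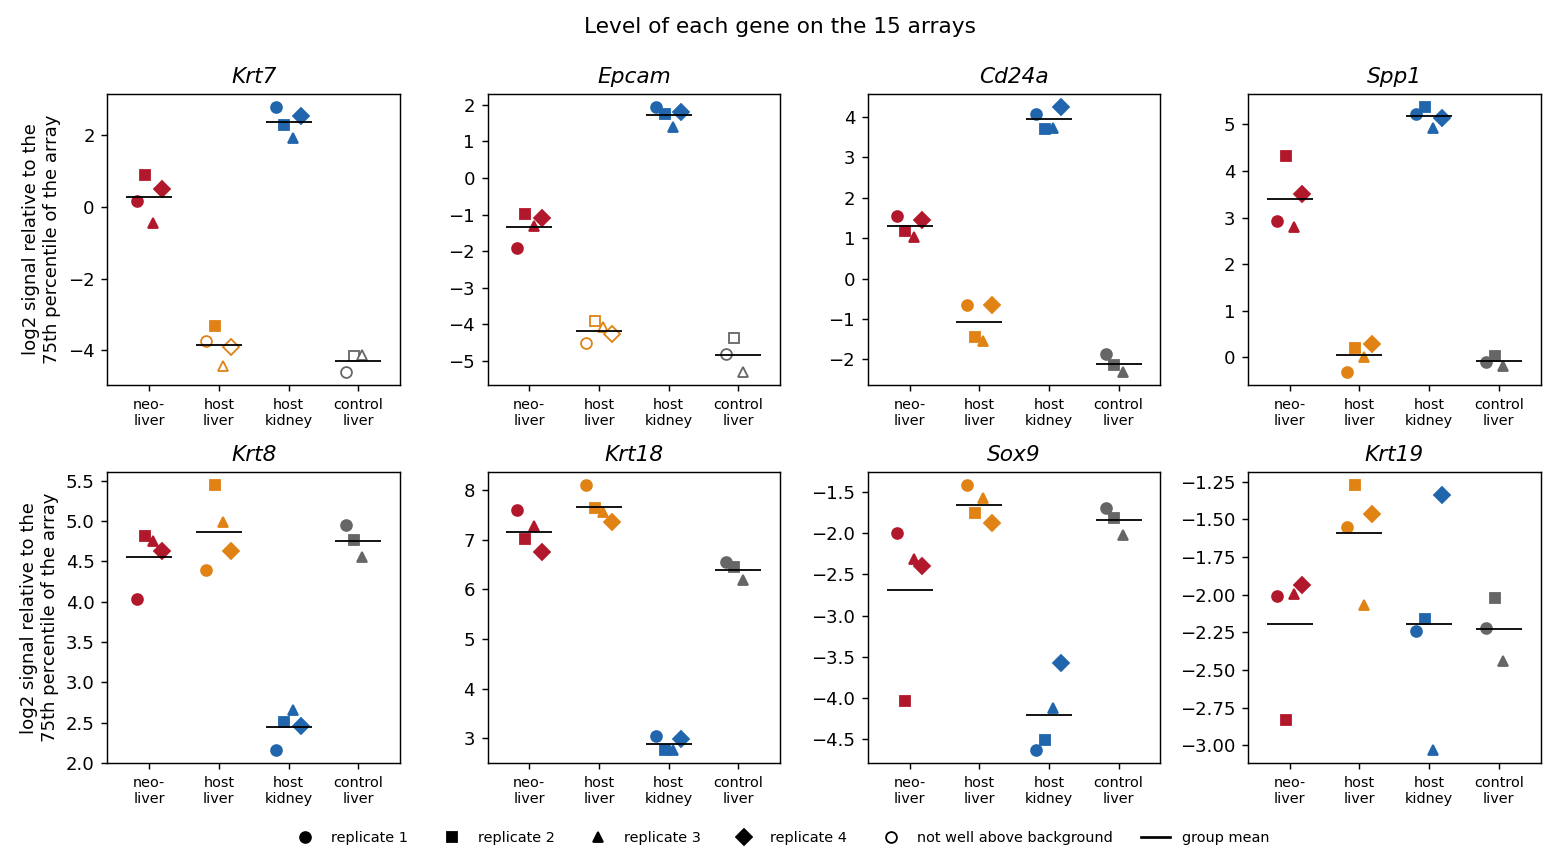
Log2 level (relative to the 75th percentile of the array) of each of the 8 genes on the 15 arrays, 1 point per array with the shape giving the replicate number, open where the probe was not well above background, and a line at the group mean. Krt7, Epcam, Cd24a and Spp1 lay between the livers and host kidney in neo-liver, while Krt8 and Krt18 lay near the livers and well above host kidney.

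Krt8 and Krt18, the keratin pair of hepatocytes, lay far nearer to both livers than to kidney in neo-liver. Krt8 measured 4.04, 4.81, 4.76 and 4.63 in the 4 neo-livers, 4.39, 5.45, 4.98 and 4.63 in host liver, 2.16, 2.51, 2.66 and 2.46 in host kidney and 4.95, 4.76 and 4.56 in control liver. The neo-liver range overlapped both liver ranges and lay wholly above that of host kidney. Krt8 was 4.33-fold higher in neo-liver than in host kidney (log2 difference 2.11 ± 0.22, SE, adjusted p = 4.23e-06). It differed from host liver by -0.30 (95% interval -0.79 to 0.18, adjusted p = 0.281) and from control liver by -0.20 (-0.72 to 0.32, adjusted p = 0.519).

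Krt18 was higher in neo-liver, and also in host liver, than in control liver. It measured 7.59, 7.01, 7.28 and 6.75 in neo-liver, 8.09, 7.63, 7.55 and 7.34 in host liver, 3.04, 2.76, 2.77 and 2.98 in host kidney and 6.55, 6.45 and 6.18 in control liver. Every neo-liver and host liver array was above every control liver array, and neo-liver overlapped host liver. Krt18 was 1.70-fold higher in neo-liver than in control liver (log2 difference 0.76 ± 0.20, adjusted p = 0.00715) and 2.40-fold higher in host liver than in control liver (1.26 ± 0.20, adjusted p = 0.000987). Both calls held in every alternative tried. Against host kidney, Krt18 was 19.2-fold higher in neo-liver (adjusted p = 4.03e-10). Against host liver it was lower by a log2 difference of -0.50 ± 0.19 (adjusted p = 0.0431), but that call was lost without host liver replicate 1, 2 or 3 or neo-liver replicate 2, 3 or 4 (difference -0.54 to -0.35), with normexp background correction (adjusted p = 0.0643), with slide as a random block (0.0548) and in a fit of these 2 groups alone (0.119). The difference was 0.11 (adjusted p = 0.664) with quantile normalization.

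Krt7 and Krt19, the keratins that set bile duct cells apart from hepatocytes, gave different patterns. Krt7 measured 0.18, 0.88, -0.46 and 0.51 in neo-liver, -3.75, -3.33, -4.44 and -3.93 in host liver, 2.80, 2.30, 1.92 and 2.53 in host kidney and -4.61, -4.17 and -4.14 in control liver. The ranges of neo-liver, host kidney and the livers were separate, and of the host and control livers only host liver replicate 2 was well above background. Krt7 in neo-liver was 17.6-fold above host liver (log2 difference 4.14 ± 0.29, adjusted p = 1.49e-07), where 1 of 4 host liver arrays measured it, and at least 23.3-fold higher than in control liver (adjusted p = 1.09e-07). For such a bound each dim array takes its own signal, or the lowest one well above background on that array if this is larger. Against host kidney Krt7 was 4.31-fold lower (adjusted p = 4.70e-05).

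Krt19 was not called between any pair of the 4 tissues. It measured -2.01, -2.83, -1.99 and -1.93 in neo-liver, -1.55, -1.27, -2.07 and -1.47 in host liver, -2.24, -2.16, -3.03 and -1.34 in host kidney and -2.22, -2.02 and -2.44 in control liver. All groups overlapped. Neo-liver differed from host liver by -0.60 (95% interval -1.27 to 0.07, adjusted p = 0.124), from host kidney by 0.00 (-0.67 to 0.67, adjusted p = 0.996) and from control liver by 0.03 (-0.69 to 0.76, adjusted p = 0.940). The lower value against host liver was called with normexp background correction (-0.58, adjusted p = 0.0453) and with median centring (-0.80, adjusted p = 0.0332). With the tubule share removed, as described below, it was also called (-1.41 to -1.23 with the 3 marker sets, adjusted p = 0.0223 to 0.0320). That removal lowers neo-liver signals in general (median of all genes -0.88 to -0.69) and took replicate 2 from -2.83 to -4.73 with all markers. Since it had to lower Krt19, this call adds no separate support.

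The surface genes Epcam and Cd24a followed the order of Krt7. Epcam measured -1.91, -0.997, -1.32 and -1.10 in neo-liver, -4.50, -3.91, -4.07 and -4.26 in host liver, 1.94, 1.76, 1.39 and 1.80 in host kidney and -4.80, -4.37 and -5.30 in control liver. It was not well above background on any liver array outside neo-liver, so neo-liver was at least 5.80-fold above host liver (adjusted p = 5.77e-07) and at least 8.26-fold above control liver (adjusted p = 1.51e-07), with no fold between these livers. Against host kidney it was 8.30-fold lower (adjusted p = 1.33e-07).

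Cd24a measured 1.54, 1.17, 1.02 and 1.45 in neo-liver, -0.67, -1.45, -1.54 and -0.66 in host liver, 4.07, 3.70, 3.73 and 4.26 in host kidney and -1.88, -2.13 and -2.31 in control liver. The 4 groups were separate, in the order host kidney, neo-liver, host liver and control liver. Cd24a in neo-liver was 5.18-fold above host liver (log2 difference 2.37 ± 0.22, adjusted p = 2.20e-06) and 10.6-fold above control liver (adjusted p = 1.29e-07). It was 6.26-fold lower than in host kidney (adjusted p = 3.75e-07). Host liver itself was 2.04-fold above control liver (1.03 ± 0.24, adjusted p = 0.00793).

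Spp1, the secreted member, measured 2.92, 4.33, 2.80 and 3.51 in neo-liver, -0.31, 0.21, 0.02 and 0.29 in host liver, 5.23, 5.38, 4.93 and 5.14 in host kidney and -0.09, 0.04 and -0.17 in control liver. Neo-liver lay apart from all 3 tissues and had the largest spread of the 4 tissues (SD 0.70, n = 4). It was 10.1-fold above host liver (log2 difference 3.34 ± 0.27, adjusted p = 5.82e-07), 11.1-fold above control liver (adjusted p = 7.03e-07) and 3.44-fold below host kidney (adjusted p = 0.000101). Macrophages also make Spp1, and the summed level of 11 macrophage genes was 11595 to 22370 in neo-liver, 14625 to 34456 in host liver, 3369 to 3716 in host kidney and 10262 to 15640 in control liver. Against host liver 2 of the 11 were higher in neo-liver, Trem2 (1.70 ± 0.44) and Itgax (1.27 ± 0.34). Another 2 were lower, Cd5l (-0.86 ± 0.25) and Vsig4 (-0.86 ± 0.29), where 17.1% of all genes were higher and 31.5% lower. Against control liver 6 were higher and 0 lower, where 20.4% of all genes were higher and 29.7% lower. The part of macrophages in the level of Spp1 was not tested.

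Sox9, the transcription factor, ran the other way from Krt7 and Spp1, with its lowest levels in host kidney. It measured -1.99, -4.04, -2.32 and -2.40 in neo-liver, -1.42, -1.75, -1.58 and -1.88 in host liver, -4.64, -4.51, -4.13 and -3.58 in host kidney and -1.69, -1.82 and -2.02 in control liver. Neo-liver was wholly below host liver, while replicate 2 alone reached the host kidney range. Host kidney signals were 22.6 to 62.5 units and that of neo-liver replicate 2 was 36.4. These are dim though well above background, so the folds against host kidney rest on dim signals. Sox9 was lower in neo-liver than in host liver by a log2 difference of -1.03 ± 0.36 (adjusted p = 0.0311) and 2.88-fold higher than in host kidney (adjusted p = 0.00310). Without neo-liver replicate 2 the difference to host liver was -0.58 (adjusted p = 0.0513), and the call was also lost without host liver replicate 1 (adjusted p = 0.0673) or replicate 3 (adjusted p = 0.0621) and in a fit of these 2 groups alone (adjusted p = 0.0820). The difference to control liver was -0.84 (95% interval -1.69 to 0.00, adjusted p = 0.0883).

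**Figure D2:**
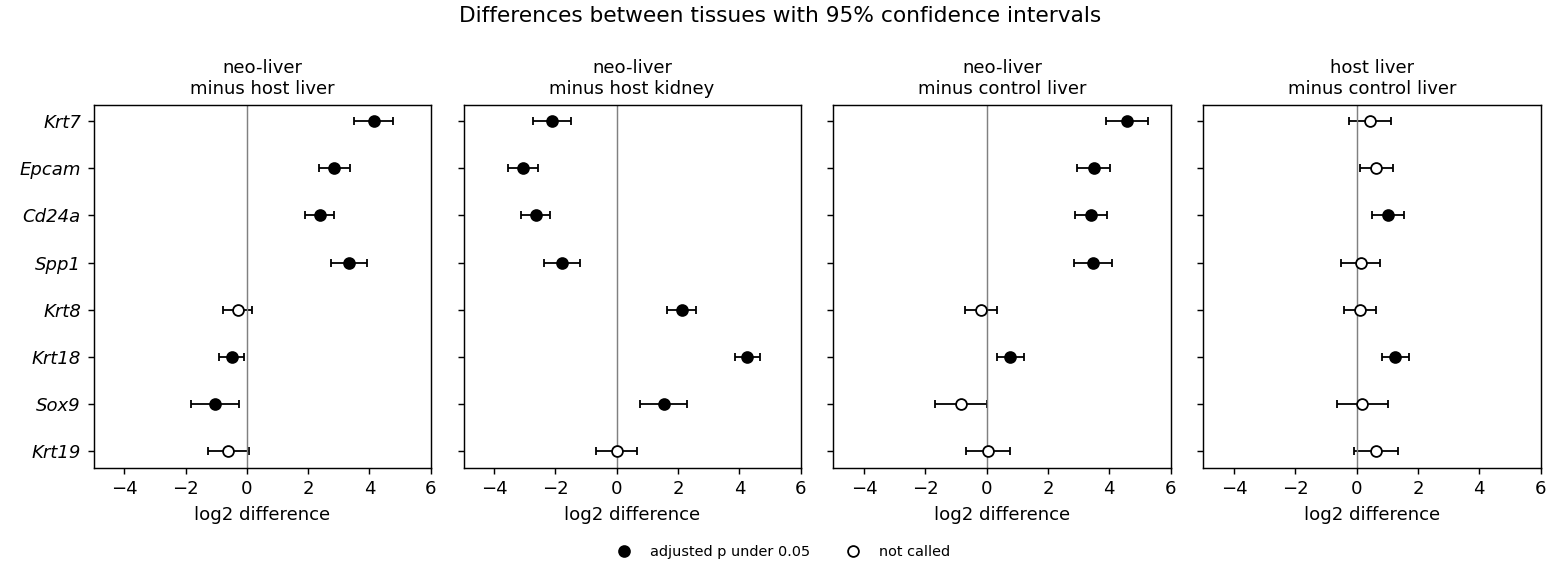
Log2 differences of the 8 genes in 4 comparisons (points) with 95% confidence intervals from the limma fit (bars), filled where the adjusted p was under 0.05. Krt7, Epcam, Cd24a and Spp1 are on the right of 0 against both livers and on the left against host kidney.

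The injured host liver differed from control liver in 2 of the 8 genes, both higher, Krt18 and Cd24a as given above, where 24.7% of all genes were called, 13.4% higher and 11.2% lower. For these 2 genes, and for 37.5% of all genes, the groups did not overlap. Krt8 (0.10, adjusted p = 0.784), Spp1 (0.13, adjusted p = 0.778), Sox9 (0.19, adjusted p = 0.755) and Krt19 (0.64, adjusted p = 0.182) were not called. Neither were Krt7, well above background on 1 of 4 host liver arrays and on none of control liver, and Epcam, on none of either. Host liver and host kidney differed in 7 of the 8 genes, 3 higher in host liver and 4 lower, where 70.8% of all genes were called, 39.6% higher and 31.2% lower. The groups were separate for the same 7 genes and for 62.5% of all genes. Krt18 was 27.2-fold and Krt8 5.34-fold higher in host liver, and Sox9 5.89-fold higher, whereas Epcam was at least 48.2-fold, Spp1 34.7-fold and Cd24a 32.5-fold lower. Krt7 was 76.0-fold lower, measured well above background on 1 of 4 host liver arrays. Krt19 was not called (0.60, adjusted p = 0.0964), and it was called without host kidney replicate 4 (0.89, adjusted p = 0.0118), with normexp (0.63, adjusted p = 0.0195), with quantile normalization (0.79, adjusted p = 0.0340) and with median centring (0.82, adjusted p = 0.0226). Host kidney against control liver gave the same 7 genes, 4 higher in host kidney and 3 lower, where 66.5% of all genes were called, 30.3% higher and 36.2% lower, and where the groups were separate for 7 of the 8 and for 74.1% of all genes. There Krt7 was at least 100.4-fold and Epcam at least 68.5-fold higher.

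Kidney tubule genes were measured in neo-liver, and Krt7, Epcam, Cd24a and Spp1 are set beside them here. Against host liver, 17 of 20 proximal tubule genes were higher in neo-liver and 2 lower, and 25 of the 26 genes of later segments were higher. Of all genes, 17.1% were higher and 31.5% lower. The summed level of the proximal genes was 61031 to 115328 in neo-liver, 40426 to 45197 in host liver, 231174 to 287479 in host kidney and 27667 to 31316 in control liver. A tubule share of each array was taken over 42 tubule genes whose host kidney signal was at least 8-fold that of control liver, as the neo-liver excess over control liver in percent of the host kidney excess, both on the linear scale. Its median over these genes was 14.9%, 43.2%, 17.9% and 29.7% on neo-liver replicates 1 to 4 (mean 26.4% ± 12.9, SD, n = 4), and 0.00495% to 0.0206% on the host liver arrays. Single genes ranged from 3.15% to 62.9%. The same share was 20.4%, 33.7%, 12.8% and 25.8% for Krt7 and 18.7%, 54.4%, 17.0% and 29.6% for Spp1, with means of 23.2% ± 8.83 and 29.9% ± 17.2 (SD, n = 4). It was 6.97%, 14.1%, 11.1% and 13.0% for Epcam and 17.5%, 13.1%, 11.7% and 16.2% for Cd24a. Replicate 2, with the highest tubule share, had the highest Krt7, Epcam and Spp1 and the lowest Krt19 and Sox9 among neo-livers, but not the highest Cd24a. In whole tissue, fewer cells of a type and less RNA per cell cannot be told apart.

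**Figure D3:**
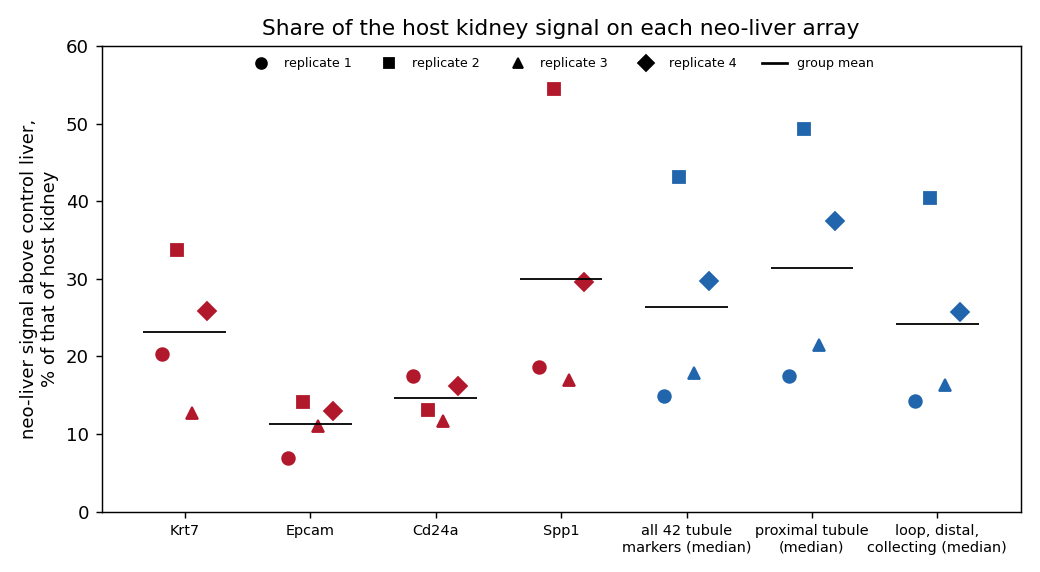
Excess of the neo-liver signal over control liver, in percent of the host kidney excess (linear scale), for Krt7, Epcam, Cd24a and Spp1 (red) and as the median over all 42 tubule genes, the 18 proximal ones and the 24 of later segments (blue). Each point is 1 neo-liver array, the shape its replicate number and the line the mean of 4. Epcam and Cd24a stay below 18%, while replicate 2 reaches 54.4% for Spp1.

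When the tubule share of each neo-liver array was removed from its signal, the 4 differences to the livers were no longer called higher. That percent of the mean host kidney signal was subtracted. For 3 genes the outcome was largely fixed by the shares above. The share of Epcam on every array, and those of Krt7 and Cd24a on replicates 2 to 4, lay below the share removed. For Spp1 the outcome was fixed in part. Its share was below the one removed on replicate 3 (17.0% against 17.9%) and replicate 4 (29.6% against 29.7%). The loss of its call therefore adds no separate support. The source of the signal of these 4 genes was not tested. Against host liver, Krt7 was then at -0.33 (adjusted p = 0.649) and Spp1 at 0.34 (adjusted p = 0.577). Cd24a was at -2.90 (adjusted p = 0.00409) and Epcam at -0.72 (adjusted p = 0.0127), values set by the floor, the lowest signal well above background, which 3 of 4 arrays reached for Cd24a and Krt7 and 4 of 4 for Epcam. Against control liver, 1 of the 8 genes was called in place of 5, Krt18 at 0.74 (adjusted p = 0.00917). The removal lowers neo-liver signals in general: the median of all genes was -0.74 against host liver and -0.67 against control liver in this setting, and 10448 and 10010 of the 15594 genes were called. With the share taken from the 24 genes of loop, distal tubule and collecting duct alone, chosen after seeing the data, Spp1 was still called higher than in host liver (1.15, adjusted p = 0.0119) and than in control liver (1.28, adjusted p = 0.0107). With the 18 proximal genes alone, also chosen after seeing the data, it was at -2.26 and -2.14 (adjusted p = 0.0899 and 0.138), with 2 of 4 arrays at the floor. Which share holds for the cells around the graft was not tested.

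Of 32 other genes of bile duct epithelium, 30 were tested. Against host liver 16 were higher in neo-liver and 3 lower (median 0.92, all genes -0.21), against host kidney 4 were higher and 21 lower (median -1.42, all genes -0.09), and against control liver 16 were higher and 4 lower (median 1.24, all genes -0.15). Of all genes, 17.1% were higher and 31.5% lower against host liver. These shares were 23.2% and 29.5% against host kidney and 20.4% and 29.7% against control liver. Ggt1, a glutathione-cleaving ectoenzyme of brush borders, was at least 93.5-fold and Cldn10, a claudin of tight junctions, at least 82.8-fold higher than in host liver. Bicc1, an RNA-binding protein whose loss gives cystic kidneys in mice, was higher by a log2 difference of 3.34 ± 0.15 (adjusted p = 1.19e-09). Onecut1 and Onecut2, transcription factors of hepatocytes and bile ducts, were lower than in host liver by -1.37 ± 0.44 and -1.16 ± 0.36, and Onecut2 was higher than in host kidney by 7.53 ± 0.36. With the tubule share removed, 3 of the 30 were higher and 13 lower than in host liver, and 5 were higher and 12 lower than in control liver. The medians of the list, -0.61 and -0.60, were then near those of all genes, -0.74 and -0.67. Since the removal lowers neo-liver signals, most where host kidney is high, higher calls lost in this list add no separate support. Host liver had 5 higher and 3 lower than control liver (median 0.12, all genes 0.08), where 13.4% of all genes were higher and 11.2% lower. Prom1, a membrane glycoprotein of progenitor and duct cells, was higher by 1.37 ± 0.40, and Sctr, the secretin receptor, was lower by -0.74 ± 0.15 (adjusted p = 0.00434).

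**Figure D4:**
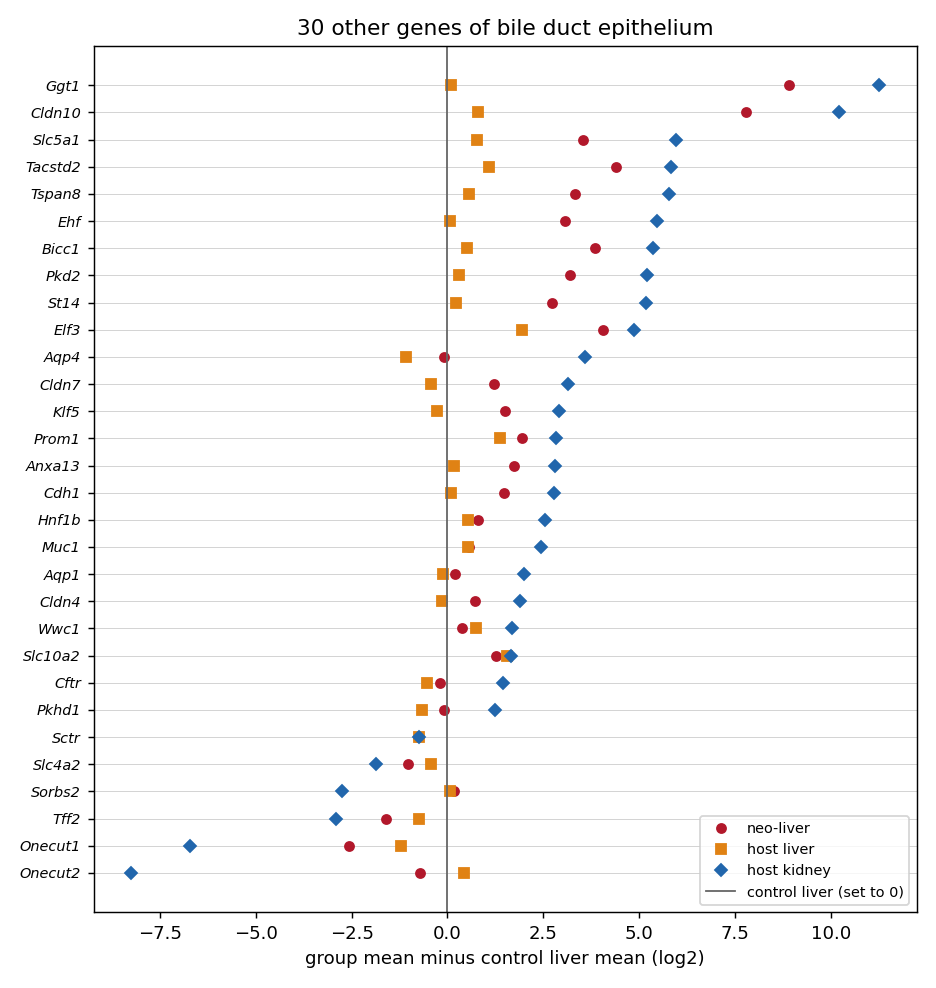
Mean log2 level of 30 other genes of bile duct epithelium in neo-liver, host liver and host kidney minus that in control liver (vertical line at 0), each point a group mean of 4 arrays. From Ggt1 down to Cdh1, neo-liver lies between control liver and host kidney for every gene but Aqp4.

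The partners of the keratins changed in part. Of 29 other keratins 14 were tested, and against host liver none was called (limma, 1 gene at an unadjusted p under 0.05). Against control liver 1 was higher in neo-liver and 5 lower, among them Krt23 (-2.61 ± 0.89, adjusted p = 0.0258) and Krt80 (-1.59 ± 0.30), and 4 were lower in host liver, among them Krt80 (-1.27 ± 0.30). Of 12 genes of desmosomes, hemidesmosomes and filament linkage, 6 were higher and 5 lower in neo-liver than in host kidney, with the desmosomal cadherins Dsc2 (4.23 ± 0.13) and Dsg2 (1.98 ± 0.14) higher and Evpl, the linker envoplakin, lower (-2.05 ± 0.29). Against host liver 3 were higher and 5 lower, with Itga6, a laminin receptor chain, higher (2.56 ± 0.25) and Dsg2 lower (-0.75 ± 0.14). Of all genes, 23.2% were higher and 29.5% lower than in host kidney, and 17.1% and 31.5% than in host liver. With the tubule share removed, 8 of the 12 were lower than in host liver and the 3 higher calls were lost. Their median was then -0.69, near that of all genes, -0.74, and 10448 of the 15594 genes were called in that setting. The loss of the higher calls adds no separate support, since the removal lowers neo-liver signals in general.

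Genes around Sox9 and Spp1 were read the same way. The Notch and YAP pathways act on duct cell fate, and 19 of their genes were tested. Against host liver 8 were higher and 2 lower in neo-liver (17.1% and 31.5% of all genes). Against host kidney 2 were higher and 8 lower (23.2% and 29.5% of all genes). Against control liver 10 were higher and 0 lower (20.4% and 29.7% of all genes, limma, 11 of the 19 at an unadjusted p under 0.05). In these comparisons 48.6%, 52.7% and 50.1% of all genes were called. With the tubule share removed, 3 of the 19 were higher and 4 lower than in host liver and 2 higher and 4 lower than in control liver. Their medians were then -0.47 and -0.05, and those of all genes -0.74 and -0.67, with 10448 and 10010 of the 15594 genes called. The Notch effector Hey1 was higher than in host liver by 1.46 ± 0.28, and Jag1, a Notch ligand, lower than in host kidney by -1.29 ± 0.20. Of 5 other Sox genes 2 were called between neo-liver and host liver, both higher, where 48.6% of all genes were called. With the tubule share removed both calls were lost and 3 were lower (median -0.69, all genes -0.74). The removal lowers neo-liver signals, most where host kidney is high. Higher calls lost in the lists of this paragraph therefore add no separate support. Neo-liver exceeded host liver in Sox4 (1.25 ± 0.26), and host liver exceeded control liver in it (1.21 ± 0.28). Of 10 tested integrins and other receptors of Spp1 and secreted proteins of its family, 7 were higher and 1 lower than in host kidney. Against host liver 2 were higher and 1 lower. Of all genes, 23.2% were higher and 29.5% lower than in host kidney, and 17.1% and 31.5% than in host liver. With the tubule share removed, 1 of the 10 was higher and 4 lower than in host liver (median -0.54, all genes -0.74). Itga5 was the lower one against host liver (-1.11 ± 0.20), and Mepe, a secreted phosphoprotein of the Spp1 family, was higher (4.33 ± 0.23).

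Mesothelium, the lining of body cavities and organ surfaces, also makes simple keratins. Of its 10 listed genes 7 were tested, and their summed level was 364 to 620 in neo-liver, 74.7 to 166 in host liver, 1443 to 1688 in host kidney and 69.6 to 77.3 in control liver. Against host liver 5 of the 7 were higher in neo-liver and none lower (limma, 5 at an unadjusted p under 0.05). Of all genes, 17.1% were higher and 31.5% lower. With the tubule share removed, 1 of the 7 was higher and 1 lower (median 0.30, all genes -0.74). Calls lost in this way add no separate support, since the removal lowers neo-liver signals in general. The part of mesothelium in the keratin levels was not tested.

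Over the 15 arrays, the profiles of the 8 genes fell near each other in part, measured as the root mean square difference of mean-centred log2 levels. Pairs among Krt7, Epcam, Cd24a and Spp1 differed by 0.55 to 0.80, the least between Cd24a and Epcam. Krt8 differed from Sox9 by 0.68 and from Krt18, its filament partner, by 1.06, and Krt7 and Krt18 were the farthest apart at 4.43. Among all genes tested, the nearest to Krt7 were Oxct1 (0.27) and Plxdc2 (0.28), one of the nearest to Spp1 was Ezr (0.23), and the nearest to Cd24a was Tspan8 (0.34), itself a listed bile duct gene. Serinc5 (0.22) and Stom (0.26) were nearest to Krt8, Ackr1 (0.41) and Hpse (0.44) to Krt18, Pou3f3 (0.39) to Epcam, Tbkbp1 (0.35) to Sox9 and Krt42 (0.33), another keratin, to Krt19.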

How the data were processed

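Per the file headers, the authors deposited scanner files with intensity values from Agilent Feature Extraction 10.10.1.1, background-subtracted within each array, and the submitters deposited log2 values for the whole series. Nothing in the labels says that samples of a group are separate mice, so p-values measure the spread between these samples. Here, log2 processed signal minus the array's 75th percentile was used without control and outlier spots, and spots of a probe were averaged (55681 probes). Probes well above background on every array of at least 1 group were kept (34984), and 20388 of them had a symbol through their RefSeq accession. The brightest probe stood for a gene, which gave 15594 genes. A single limma model of the 15 arrays estimated each group's mean (R 4.3.3, limma 3.58.1, statmod 1.5.0, data.table version 1.17.8), with two-sided moderated tests adjusted over all genes. The number of arrays and signal over background limit precision. The fit was tested on simulated data.

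The genes, lists and rules were chosen with earlier results of these data known. Named genes are the 8 members, up to 3 called members of each list in its main direction and 2 in the other, and for each member its 3 nearest profiles, of which the text gives some. Same-numbered neo-livers, host livers and host kidneys correlated in their residuals (r across genes 0.179 to 0.577 in 3 tissue pairs of 4 numbers each), and an equal number was therefore treated as the same mouse in a blocked alternative. Other alternatives were normexp background correction on median spot signals (offset 50), quantile normalization, median centring, the deposited values, filters, a fit of 2 groups, slide as a random block, removal of the tubule share and leaving out each array.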

Additional observations from a re-analysis of the deposited data

Results flagged for a closer look

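Krt19 on neo-liver replicate 2 was at -2.83, far from the other neo-livers, of which the nearest was at -2.01 and the farthest at -1.93. The gap was 0.920 of the group's range, above Dixon's 95% critical value for 4 samples. Of 24 groups of 4 tested for the 8 genes it was the only one past the value, and chance gives about 1 in 20. The same replicate held the largest tubule share (43.2%), and the part of that share in the value was not tested.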

How the results depend on the processing

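Of 936 recomputed differences of the 8 genes outside the removal of the tubule share, 911 kept their side of the threshold without turning a called difference around. Differences that were not called could change direction among these 911. Krt8 against control liver, at -0.20 in the main fit, reached 0.21. With the tubule share removed, 1 gene was called between neo-liver and control liver in place of 5. With the share of distal genes alone 2 were called, Krt18 and Spp1, both higher. With that of proximal genes alone 2 were called, Krt18 higher and Cd24a lower (adjusted p = 0.00262 in limma, 3 of 4 arrays at the floor). Against host liver the difference turned to -0.33 for Krt7, -0.72 for Epcam and -2.90 for Cd24a, with distal genes alone to -0.15, -0.72 and -2.84, and with proximal genes alone to -0.52, -0.72 and -3.30, and to -2.26 for Spp1. Against control liver it turned to -0.083 for Epcam and -1.87 for Cd24a, with distal genes alone to -0.083 and -1.82, and with proximal genes alone to -0.076 for Krt7, -0.083 for Epcam, -2.27 for Cd24a and -2.14 for Spp1. Krt18 against host liver turned to 0.11 with quantile normalization. Floors set the values of Epcam, most of those of Cd24a and Krt7, and those of Spp1 with proximal genes alone on 2 of 4 arrays. Against control liver the median of all genes was -0.67, -0.61 and -0.81 with all, distal and proximal genes, with 10010, 9835 and 10429 genes called, and against host liver it was -0.74, -0.69 and -0.88. Quantile normalization moved the median of all genes by -0.19 to 0.18 over the 6 comparisons, and median centring by -0.20 to 0.22.

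Leaving out 1 array gave 4 to 6 called genes between neo-liver and host liver, 5 to 6 against control liver, 2 to 3 between host liver and control liver, 7 to 8 between host liver and host kidney and 7 in the comparisons of host kidney with neo-liver and control liver. With the replicate number as a block for the mice, 6 genes were called between neo-liver and host liver, 7 between neo-liver and host kidney and 5 between neo-liver and control liver, and the pairing changed no call. Sox9 against control liver was called with normexp (-0.60, adjusted p = 0.0242) and without neo-liver replicate 1 (-1.07, adjusted p = 0.0393). Epcam in host liver against control liver was called with quantile normalization, median centring and without control liver replicate 2, while not well above background on any array of either. Signal over background limits Krt7 and Epcam in the livers, and Sox9 was dim in host kidney though well above background.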
